A study of Mus musculus with 4 samples.

Results

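The 10 antiviral restriction factors described here are Mx1, Mx2, Rsad2, Bst2, Ifitm1, Ifitm2, Ifitm3, Samhd1, Eif2ak2 and Apobec3. They were chosen by gene symbol, with 1 Ensembl gene each, from the 46603 genes of an unfiltered expression table of mouse lung, and 9 of them are also among the 12850 genes of a filtered table; Mx1 is outside it. Lung RNA came from 2 SA and 2 WT samples of littermates on a C57BL/6 background, aged 6 to 8 weeks. SA mice carry the Ifnar1 S526A allele, which puts alanine in place of a serine in a chain of the type I interferon receptor, and WT mice are Ifnar1+/+. Both groups were given 100 µl of medium conditioned by B16F10 mouse melanoma cells intravenously, 3 times a week for 3 weeks. The comparison is thus between genotypes under the medium, and the receptor protein was not measured.

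Restriction factors are host proteins that block a step of viral replication inside the infected cell or in its neighbours. Type I interferon binds its receptor on the cell surface, and a complex of transcription factors then enters the nucleus and binds interferon-stimulated response elements in the promoters of many of these genes. MX proteins are dynamin-like GTPases, viperin (Rsad2) is a radical SAM enzyme, tetherin (Bst2) holds budding virions at the cell surface, and IFITM proteins hinder the fusion of viruses with membranes. PKR (Eif2ak2) stops translation when it meets double-stranded RNA, SAMHD1 hydrolyses deoxynucleotides, and APOBEC3 deaminates cytosines in retroviral DNA. In C57BL/6 mice, as in most inbred strains, the Mx1 gene carries a deletion that removes the function of its protein, and the Mx2 gene of laboratory strains is also known to be defective.

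MX genes showed the widest gap between the genotypes, the other interferon-inducible members a smaller one, and Samhd1 and Ifitm2 were not higher in SA. Levels are log2 CPM, in which the reads of a gene are scaled to the total of its library. A difference is the SA mean less the WT mean in log2 units, and its standard error (SE) or 95% interval comes from a limma fit over all genes. SA and WT libraries did not overlap in 8 members that were higher in SA and in 1, Samhd1, that was lower. Lack of overlap was common: 37.8% of filtered genes were higher and 22.9% lower in this way, against 21.3% and 11.5% of unfiltered genes, and 38.6% and 22.3% of the 14534 unfiltered genes with a mean of at least 1 log2 CPM. Tested over the filtered genes (limma, Benjamini-Hochberg adjustment, threshold 0.05), 0 of 9 members passed, where 0.311% of all genes did, 0.163% higher and 0.148% lower. Before adjustment, 7 of those 9 members were higher with p under 0.05 and 0 were lower, as were 2106 and 1402 of the 12850 genes. Tested over the unfiltered genes, 6 of 10 members passed, all of them higher, where 4.75% of all genes did, 3.21% higher and 1.54% lower. Most of the unfiltered genes average below 1 log2 CPM, so these shares are not those of expressed genes alone. The 6 members were Mx1, Mx2, Rsad2, Bst2, Ifitm1 and Eif2ak2. Tested over the 14534 unfiltered genes with a mean of at least 1 log2 CPM, 0 members passed, where 36 of all those genes did. The libraries hold 27381916 to 38378936 gene reads, which puts 3 reads, used as a floor for counting error only, at 0.078 to 0.11 CPM. The labels call the samples biological replicates but number no animals. A limma p-value here reflects only how far such samples spread, for the gene itself and, by pooling, for the other genes fitted. It therefore depends on which genes are fitted. In bulk tissue, fewer cells of a type and less RNA per cell cannot be told apart.

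**Figure D1:**
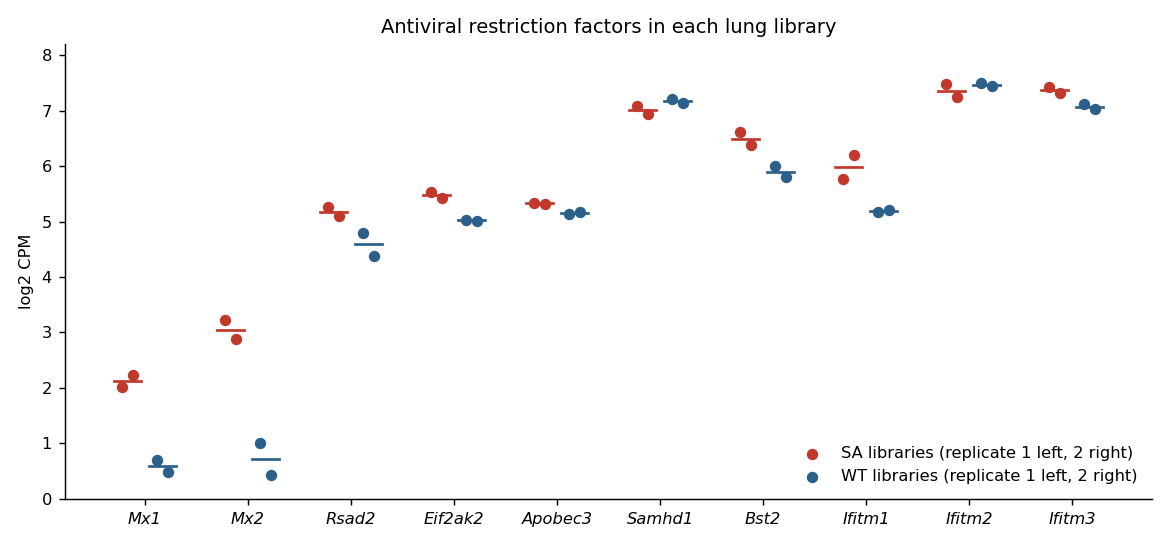
Log2 CPM (vertical axis) of the 10 members in each library, SA in red to the left of WT in blue, with a line at each group mean of 2 libraries. Mx1 and Mx2 lie lowest and are furthest apart between SA and WT, with SA means of 2.12 and 3.05 against WT means of 0.59 and 0.72, while the Ifitm2 libraries of both genotypes overlap.

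Mx2 had the largest difference of the 10 members. Its gene, which GENCODE classes as a polymorphic pseudogene, spans 97535308 to 97560900 on chromosome 16 (GRCm38, plus strand). Mx2 log2 CPM was 3.22 in SA 1 and 2.87 in SA 2, on 255 and 281 reads, against 1.01 in WT 1 and 0.43 in WT 2, on 61 and 42 reads. Both SA libraries lay well above both WT libraries, and replicate 1 was the higher library in each genotype. The difference was 2.33 ± 0.27 (SE), or 5.04-fold. Its limma adjusted p of 0.0502 over filtered genes was just above the threshold, and over unfiltered genes it was 7.7e-06.

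Mx1, the neighbouring gene on the minus strand (97447035 to 97462907), rose in SA. Its log2 CPM was 2.01 in SA 1 and 2.23 in SA 2, on 110 and 179 reads, against 0.69 in WT 1 and 0.49 in WT 2, on 49 and 44 reads. The SA libraries were both higher than the WT libraries by more than the spread within either genotype. The difference was 1.53 ± 0.21 (SE), or 2.88-fold, in the fit over the unfiltered table, with an adjusted p of 0.00029. That call was lost in 5 of 13 alternatives: the adjusted p was 0.0506 over unfiltered genes with a mean of at least 1 log2 CPM and 0.28 after quantile normalization, where the difference was 1.27. Of the 50-base words in annotated Mx1 transcripts, 3.91% also occur in other genes, Mx2 among them, and 4.38% of those of Mx2 occur in Mx1.

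Set against each other within a library, Mx2 exceeded Mx1 by more in SA libraries. The log2 ratio of Mx2 to Mx1 was 1.21 in SA 1 and 0.65 in SA 2, against 0.31 in WT 1 and -0.07 in WT 2. Such a ratio does not depend on how a library is scaled, and both SA values lay above both WT values. Its means were 0.93 ± 0.40 in SA and 0.12 ± 0.27 in WT (SD, n = 2 each), and an exact two-sided permutation test gave p = 0.333, the smallest that 2 against 2 samples allow.

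Both MX genes lie on the chromosome that carries Ifnar1. Mx1 starts 5.94 Mb beyond the end of Ifnar1, whose mRNA was at 6.22 and 6.03 log2 CPM in SA 1 and SA 2 and at 6.09 and 6.14 in WT 1 and WT 2. The filtered table holds 39 genes between them. Of these, 26 were higher and 13 lower in SA, the 13 including Cldn14, which had 0 reads in every library. The median difference was 0.14 beside 0.06 over all genes tested. By limma 0 of the 39 passed, and 17 had p under 0.05 before adjustment. Over all 12850 filtered genes, 7759 were higher in SA and 3508 had p under 0.05 before adjustment. The share of higher genes among the 39 was thus near that of all genes, and the share with p under 0.05 was larger. Without overlap, 19 of the 39 were higher in SA and 9 lower, beside 37.8% and 22.9% of filtered genes. Differences of the 39 genes ran from -0.61 to 1.17, below that of Mx2 throughout and, at the top, below that of Mx1. The part of chromosomal position in the differences of the MX genes was not tested.

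Rsad2 and Eif2ak2, further genes induced by interferon, were higher in both SA libraries. Rsad2 (chromosome 12, 26442746 to 26456452, minus strand) encodes viperin, which makes a chain-terminating ribonucleotide. It was at 5.25 and 5.09 log2 CPM in SA 1 and SA 2 against 4.79 and 4.38 in WT 1 and WT 2. The groups are apart, but WT 1 lay nearer to SA 2 than to WT 2. The difference was 0.59 ± 0.16 (SE), or 1.502-fold. Its limma adjusted p was 0.13 over filtered and 0.011 over unfiltered genes. The difference was 0.38 without WT 2 and 0.79 without WT 1.

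Eif2ak2 encodes PKR, a kinase that phosphorylates the translation factor eIF2 alpha (chromosome 17, 78852564 to 78882573, minus strand). It had 5.53 log2 CPM in SA 1 and 5.42 in SA 2, against 5.03 in WT 1 and 5.01 in WT 2. The WT libraries were nearly equal, and the gap to SA exceeded the spread in each genotype. The difference was 0.45 ± 0.07 (SE), or 1.37-fold, and the limma adjusted p was 0.0586 over filtered and 0.0104 over unfiltered genes. The other eIF2 alpha kinases, Eif2ak1, Eif2ak3 and Eif2ak4, which answer other stresses, differed by -0.20, -0.07 and -0.09, with limma adjusted p-values of 0.14, 0.51 and 0.47 over filtered genes. Eif2ak3 and Eif2ak4 are outside the rule for naming genes and complete the kinase family.

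Bst2 encodes tetherin, which in mice also marks plasmacytoid dendritic cells and is induced by interferon in other cells. Its gene spans 71534255 to 71537456 on the minus strand of chromosome 8. Its log2 CPM was 6.61 in SA 1 and 6.37 in SA 2, against 5.99 in WT 1 and 5.80 in WT 2. Every SA library was above every WT library, and replicate 1 was higher in both genotypes. The difference was 0.59 ± 0.12 (SE), or 1.51-fold, and the limma adjusted p was 0.078 over filtered and 0.0026 over unfiltered genes. Siglech, a surface marker of plasmacytoid dendritic cells, was at 0.29 and 0.00 log2 CPM in SA 1 and SA 2 and at 0.25 and 0.56 in WT 1 and WT 2. The 8 markers listed for these cells summed to 216 and 220 CPM in SA against 248 and 230 CPM in WT, a sum in which Tcf4, also expressed by many other cells, weighs most; Ptcra was at 0 reads in every library. Of these 8 markers, 4 were higher and 4 lower in SA, with 3 higher and 1 lower without overlap. Ptcra counts as lower only because 0 reads give unlike values in libraries of unlike size. Over unfiltered genes 1 passed as higher by limma (Cox6a2, also a subunit of striated muscle mitochondria, by 1.09) and 1 as lower (Tcf4, at -0.38). Over filtered genes 0 of the 4 tested passed by limma, with 1 higher and 1 lower at p under 0.05 before adjustment. The part of these cells in the Bst2 difference was not tested.

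The 3 IFITM genes lie together on chromosome 7, where Ifitm1 and Ifitm3 were higher in both SA libraries and Ifitm2 was not. IFITM3 acts mainly in endosomes and is the member best known for restricting influenza virus, while IFITM1 is found more at the cell surface. Ifitm1, which spans 140967221 to 140969825 on the plus strand, was at 5.76 and 6.20 log2 CPM in SA 1 and SA 2 against 5.17 and 5.20 in WT 1 and WT 2. The SA libraries stand 0.44 apart and the WT libraries 0.03, so the size of the difference, 0.79 ± 0.16 (SE), leans on SA 2; it was 0.57 without SA 2 and 1.02 without SA 1. The limma adjusted p of Ifitm1 was 0.083 over filtered and 0.00078 over unfiltered genes.

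Ifitm3, which spans 141009586 to 141010770 on the minus strand, had 7.43 and 7.32 log2 CPM in SA 1 and SA 2 against 7.12 and 7.02 in WT 1 and WT 2. The groups were apart by a small margin that exceeded the spread within each. The difference was 0.30 ± 0.07 (SE), or 1.23-fold, and its limma adjusted p was 0.099 over filtered and 0.086 over unfiltered genes.

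Ifitm2, which spans 140954837 to 140955987 on the minus strand, had 7.47 and 7.24 log2 CPM in SA 1 and SA 2 against 7.50 and 7.44 in WT 1 and WT 2. SA 1 lay within the WT range, so the groups overlapped. SA less WT gave -0.11 ± 0.10 (SE), the 95% interval was -0.37 to 0.15, and the limma adjusted p was 0.48. A share of 48.5% of the 50-base words of Ifitm2 transcripts also occurs in transcripts of other annotated genes, among them Gm45717, which overlaps it on the same strand, against 10.02% for Ifitm3 and 5.02% for Ifitm1. The sources used here do not say how reads that match several genes were counted, so the level of Ifitm2 and its ratios are uncertain.

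Within each library the neighbours can be compared directly. The log2 ratio of Ifitm3 to Ifitm2 was -0.04 in SA 1 and 0.08 in SA 2, against -0.37 in WT 1 and -0.42 in WT 2. Ifitm3 thus had about as many reads as Ifitm2 in SA libraries and fewer in WT libraries. The log2 ratio of Ifitm1 to Ifitm2 was -1.71 in SA 1 and -1.03 in SA 2, against -2.32 in WT 1 and -2.24 in WT 2. Both ratios were higher in each SA library than in each WT library, and for both the exact two-sided permutation p was 0.333, the smallest possible here.

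**Figure D2:**
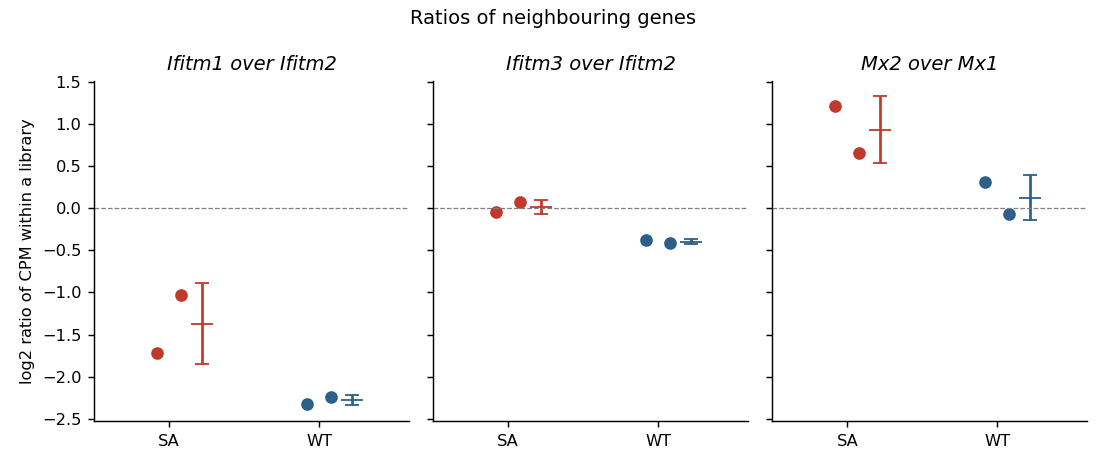
Log2 ratio of CPM within a library (vertical axis) for Ifitm1 over Ifitm2, Ifitm3 over Ifitm2 and Mx2 over Mx1, with SA in red left of WT in blue; points are libraries, and the bar beside them is the mean with its SD (n = 2). All 3 ratios are higher in both SA libraries, with means of -1.37, 0.02 and 0.93 in SA against -2.28, -0.40 and 0.12 in WT.

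Other IFITM genes were scarce or did not differ detectably. Ifitm10 was at 3.44 and 3.56 log2 CPM in SA 1 and SA 2 against 3.55 and 3.70 in WT 1 and WT 2, a difference of -0.12 ± 0.11 (SE; limma adjusted p = 0.52). Ifitm5, Ifitm6 and Ifitm7 are outside the filtered table and differed by -0.89, 0.36 and 0.63 in the unfiltered one, with limma adjusted p-values of 0.19, 0.84 and 0.93.

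Promoter sequences are shown for 6 members, since the stretches shown carry, or for Ifitm1 lack, the motif that the complex induced by interferon is known to bind. RefSeq promoter windows in GRCm38.p6 were found for 8 members, all but Mx1 and Mx2, and run from 250 bases before the start site to 50 bases after it. The motif searched was GAAANNGAAA, a direct repeat of GAAA with 2 bases between, on both strands; on the other strand it reads TTTCNNTTTC. It was present in windows of 6 of the 8 members: Apobec3, Bst2, Eif2ak2, Ifitm2, Ifitm3 and Rsad2. Of all 32851 windows, 3.44% held at least 1 match; Apobec3 has 2 windows, 1 of them with a match. Each window is written 5′ to 3′ on the strand of its gene, with matches in capitals.
Rsad2, chr12:26456403-26456702, minus strand: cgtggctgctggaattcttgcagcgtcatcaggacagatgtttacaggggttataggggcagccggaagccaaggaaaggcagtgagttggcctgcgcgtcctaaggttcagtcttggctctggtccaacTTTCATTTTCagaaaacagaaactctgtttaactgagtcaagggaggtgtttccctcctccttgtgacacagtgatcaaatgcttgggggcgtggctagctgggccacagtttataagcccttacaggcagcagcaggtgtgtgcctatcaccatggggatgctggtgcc
Bst2, chr8:71537423-71537722, minus strand: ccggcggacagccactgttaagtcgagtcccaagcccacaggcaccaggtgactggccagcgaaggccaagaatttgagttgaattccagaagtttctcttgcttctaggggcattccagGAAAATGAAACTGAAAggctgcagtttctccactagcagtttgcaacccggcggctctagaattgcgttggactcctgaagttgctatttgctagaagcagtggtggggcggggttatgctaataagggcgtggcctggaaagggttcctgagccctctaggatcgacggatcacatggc
Eif2ak2, chr17:78882523-78882822, minus strand: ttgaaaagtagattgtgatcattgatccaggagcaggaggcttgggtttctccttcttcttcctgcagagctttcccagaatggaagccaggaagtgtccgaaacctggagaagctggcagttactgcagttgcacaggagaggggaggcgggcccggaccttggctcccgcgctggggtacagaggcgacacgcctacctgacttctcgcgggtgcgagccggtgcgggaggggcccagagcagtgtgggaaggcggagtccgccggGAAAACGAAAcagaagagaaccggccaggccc
Ifitm1, chr7:140967826-140968125, plus strand: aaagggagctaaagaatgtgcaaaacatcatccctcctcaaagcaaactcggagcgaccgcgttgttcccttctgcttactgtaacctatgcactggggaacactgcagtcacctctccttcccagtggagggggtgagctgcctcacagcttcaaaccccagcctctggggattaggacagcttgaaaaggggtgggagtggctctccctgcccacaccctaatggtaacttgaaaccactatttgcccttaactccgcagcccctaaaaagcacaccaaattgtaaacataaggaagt
Ifitm2, chr7:140955912-140956211, minus strand: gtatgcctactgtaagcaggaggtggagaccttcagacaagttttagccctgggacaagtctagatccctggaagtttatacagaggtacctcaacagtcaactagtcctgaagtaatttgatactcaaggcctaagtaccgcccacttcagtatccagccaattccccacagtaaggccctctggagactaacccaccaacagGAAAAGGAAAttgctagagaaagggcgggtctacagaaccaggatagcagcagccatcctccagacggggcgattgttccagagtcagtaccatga
Ifitm3, chr7:141010695-141010994, minus strand: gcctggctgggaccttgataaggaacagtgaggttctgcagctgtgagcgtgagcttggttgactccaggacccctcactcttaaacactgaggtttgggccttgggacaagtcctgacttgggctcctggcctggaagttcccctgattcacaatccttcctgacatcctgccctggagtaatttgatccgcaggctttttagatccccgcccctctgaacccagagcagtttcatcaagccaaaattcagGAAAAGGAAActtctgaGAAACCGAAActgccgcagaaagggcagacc

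The match in Rsad2 begins 120 bases before the start site and is on the strand opposite to the gene. Bst2 has 2 overlapping matches, from 130 and 124 bases before the start site, and the match of Eif2ak2 begins 18 bases beyond it. Ifitm3 has matches 2 and 19 bases beyond its start site and Ifitm2 has 1 that begins 46 bases before, so the motif was present both in a gene that was higher in SA and in its neighbour that was not. Ifitm1 and Samhd1 have no match in these windows, which says only that those letters are missing there. The Ifitm1 window, from 140967826, lies inside the annotated gene, which starts at 140967221, so bases before that start were not searched. A match is a description of the letters and not of binding.

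Samhd1 and Apobec3 differed least among the members whose groups were apart. Samhd1, on chromosome 2 (157097533 to 157135265, minus strand), encodes a triphosphohydrolase that limits the deoxynucleotides available to retroviruses. It was at 7.07 and 6.94 log2 CPM in SA 1 and SA 2, against 7.21 and 7.13 in WT 1 and WT 2. It was lower in both SA libraries, though the step between SA 1 and SA 2 was larger than the gap between SA 1 and WT 2. SA less WT gave -0.17 ± 0.07 (SE), the 95% interval was -0.36 to 0.03, and the limma adjusted p was 0.23.

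Apobec3, on chromosome 15 (79891659 to 79915906, plus strand), encodes a cytidine deaminase packaged into retroviral particles. It was at 5.34 and 5.32 log2 CPM in SA 1 and SA 2, against 5.14 and 5.17 in WT 1 and WT 2. The replicates were close and the groups apart. The difference of 0.17 ± 0.06 (SE), or 1.13-fold, did not pass, with a limma adjusted p of 0.16, and it was 0.08 with each library centred on its median. The gene overlaps D730005E14Rik on the same strand, and 6.53% of its 50-base words also occur in other genes, that one among them. The RNA-editing relative Apobec1 differed by 0.21 and the muscle-expressed relative Apobec2 by 1.24 ± 0.21 (SE), with limma adjusted p-values of 0.43 and 0.065. Apobec2 was at 5.65 and 6.16 log2 CPM in SA 1 and SA 2 against 4.51 and 4.82 in WT 1 and WT 2. The 18 striated muscle markers, all higher in SA, summed to 3845 and 5913 CPM in SA and to 1534 and 2228 CPM in WT; the part of muscle RNA in its difference was not tested.

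**Figure D3:**
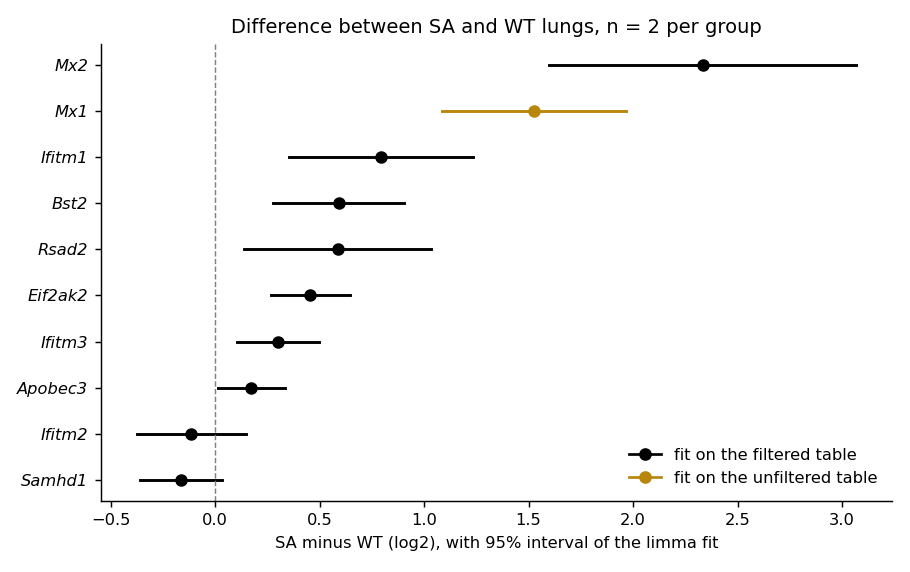
Log2 difference, SA minus WT (horizontal axis), and its 95% interval in the limma fit for each member, from the filtered table in black and, for Mx1, from the unfiltered table in ochre. Mx2 at 2.33 and Mx1 at 1.53 stand to the right of the other 8 members, and the intervals of Ifitm2 and Samhd1 include 0.

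Levels per length were compared as RPKM, which is CPM per kilobase of annotated exon. Ifitm2 and Ifitm3 were the most abundant, at 250.7 ± 28.7 and 245 ± 14.0 RPKM in SA (SD, n = 2), a pair that did not differ beyond its spread, and at 270.4 ± 7.28 and 199 ± 9.82 RPKM in WT, where Ifitm2 was the higher. Bst2 followed at 99.8 ± 11.5 RPKM in SA and 66.1 ± 6.26 in WT, and Ifitm1 at 58.4 ± 12.6 in SA and 33.3 ± 0.49 in WT. Samhd1 came next at 14.1 ± 0.95 RPKM in SA and 15.8 ± 0.59 in WT. Eif2ak2 at 8.70 and Rsad2 at 8.33 RPKM in SA could not be ordered beyond their spread, nor could they in WT, at 6.34 and 5.59 RPKM. Apobec3 was at 4.25 RPKM in SA and 3.76 in WT. Mx2 and Mx1 were lowest, at 2.30 and 1.15 RPKM in SA and, within their spread of each other, at 0.46 and 0.40 in WT. With the length of the principal transcript in place of all exons, Apobec3 moved above Eif2ak2 and Rsad2, at 17.01 RPKM in SA and 15.1 in WT, and no other place changed.

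Other antiviral effectors of the interferon response were mostly higher in SA. This list holds 31 genes found by symbol, of which 28 are among the filtered genes. It was drawn up with earlier results of these data known, as the members were. Over filtered genes 6 of the 28 rose and 0 fell (limma), 25 were higher and 3 lower, and the median difference was 0.73, beside 0.45 for the 9 members and 0.06 for all genes tested. Oasl2 and Oas2, which belong to the oligoadenylate synthetase family, rose by 1.40 and 2.55, with limma adjusted p-values of 0.029 and 0.041. Ifit1, which binds viral RNA, rose by 1.89, and Zbp1, a sensor of Z-form nucleic acid, by 1.74, with limma adjusted p-values of 0.0325 and 0.041. Cmpk2, a nucleotide kinase whose gene is the neighbour of Rsad2 on chromosome 12, was at 5.34 and 4.94 log2 CPM in SA 1 and SA 2 against 3.83 and 3.78 in WT 1 and WT 2, a difference of 1.33 (limma adjusted p = 0.0502) beside 0.59 for Rsad2. Cmpk2 is outside the rule for naming genes and was singled out after its value was seen; a difference between the pair was not tested.

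Some genes of interferon signalling also rose, and in that list 8 filtered genes were higher and 2 lower in SA. Of the 10 filtered genes of interferon signalling, 2 rose (Irf7 by 1.88 and Usp18 by 1.497, with limma adjusted p-values of 0.025 and 0.033) and 0 fell. Over unfiltered genes 5 of the 11 listed passed as higher and 0 as lower by limma, beside 3.21% and 1.54% of all genes. Irf9, which encodes a DNA-binding subunit of the transcription factor complex, was at 6.32 and 6.22 log2 CPM in SA 1 and SA 2 against 5.60 and 5.62 in WT 1 and WT 2, a difference of 0.66 (limma adjusted p = 0.0502). The type I, II and III interferon genes themselves were at or near the floor: 16 of 20 had 0 reads in every library, and no library held more than 8 reads of any.

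Genes that act with the members differed in both directions. Of 17 such genes, 12 were higher and 5 lower in SA, beside 7759 of all 12850 filtered genes higher. Without overlap, 9 were higher and 3 lower, beside 37.8% and 22.9% of filtered genes. By limma 0 of the 17 passed over filtered genes, and 3 were higher and 3 lower at p under 0.05 before adjustment. Over unfiltered genes 1 passed as higher and 2 as lower, beside 3.21% and 1.54% of all genes. The median difference of the 17 was 0.06. Atf4, the transcription factor translated when eIF2 alpha is phosphorylated, was at 7.35 and 7.35 log2 CPM in SA 1 and SA 2 against 7.76 and 7.75 in WT 1 and WT 2. Both SA libraries were lower, and SA less WT gave -0.41 ± 0.05 (SE; limma adjusted p = 0.0502). Ppp1r15a, the stress-induced subunit of the eIF2 alpha phosphatase, differed by -0.48 (limma adjusted p = 0.083), and Prkra, an activator of PKR, by 0.41 (limma adjusted p = 0.12). Fdps, a sterol pathway enzyme that viperin is known to bind, differed by 0.64 (limma adjusted p = 0.080). Phosphorylation of eIF2 alpha was not measured.

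**Figure D4:**
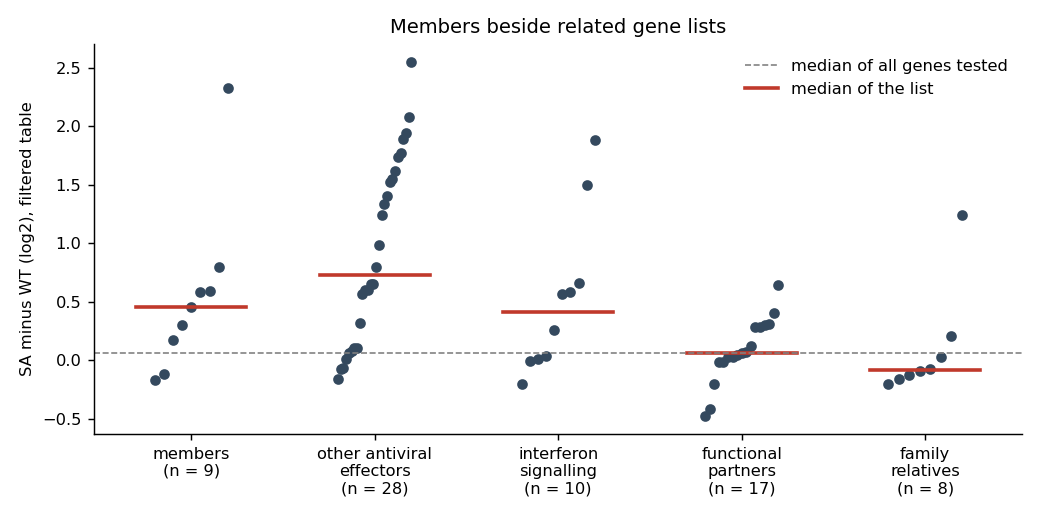
Log2 difference, SA minus WT (vertical axis), for each gene of the filtered table in 5 lists; points are genes in order of size, the red line is the median of the list and the dashed line the median of all genes tested, 0.06. Medians are 0.45 for members, 0.73 for other antiviral effectors, 0.42 for interferon signalling, 0.06 for functional partners and -0.08 for family relatives.

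Family relatives without a listed antiviral role did not pass the threshold. Of 15 relatives 8 are among the filtered genes, and 0 of them passed by limma. Unadjusted, Apobec2 was higher and Eif2ak1 lower at p under 0.05, and the median difference was -0.08. Dnm2, a dynamin, was at 7.04 and 7.16 log2 CPM in SA 1 and SA 2 against 7.30 and 7.21 in WT 1 and WT 2, a difference of -0.16 ± 0.07 (SE; limma adjusted p = 0.23).

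The libraries also differed in cell type markers. Lung epithelial markers were abundant in every library, at 53261 and 44752 CPM in SA against 49876 and 44122 CPM in WT, as the tissue label says. The 22 leukocyte markers summed to 507 and 494 CPM in SA and 490 and 474 CPM in WT, and Ptprc, the pan-leukocyte gene, was at 7.23 and 7.13 log2 CPM in SA 1 and SA 2 and at 7.08 and 7.08 in WT 1 and WT 2. These sums rest mostly on the abundant markers: of the 22, 15 were higher and 7 lower in SA, with 10 higher and 2 lower without overlap. Over unfiltered genes 4 passed as higher and 0 as lower by limma. These were the monocyte markers Ly6c2 at 0.72 and Ccr2 at 0.48, the T cell marker Cd3g at 0.80 and the NK cell marker Ncr1 at 1.29, with limma adjusted p-values of 0.0045, 0.016, 0.021 and 0.024. Cd3e, another T cell marker, was lower in both SA libraries, at -0.24 (limma adjusted p = 0.93). Over filtered genes 0 of the 13 leukocyte markers tested passed by limma, with 3 higher and 0 lower at p under 0.05 before adjustment. The 10 endothelial markers were lower, at 3929 and 3367 CPM in SA and 5005 and 4381 CPM in WT. The 10 ciliated cell markers were higher, at 683 and 714 CPM in SA and 341 and 416 CPM in WT. Over unfiltered genes 5 endothelial markers passed as lower and 10 ciliated cell markers as higher by limma, and over filtered genes 0 of either passed. Of the 18 striated muscle markers, 17 passed as higher by limma over unfiltered genes and 1 over filtered genes. Among all unfiltered genes, many of them scarce, 3.21% passed as higher and 1.54% as lower. Among all filtered genes these shares were 0.163% and 0.148%. The part of cell composition in the member differences was not tested.

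The mean profile of the 9 members in the filtered table, each centred on its own mean, was 0.33 in SA 1, 0.22 in SA 2, -0.20 in WT 1 and -0.35 in WT 2. The genes closest to this profile over the 4 libraries, by Euclidean distance among 12032 others with a mean of at least 1 log2 CPM, were Ap3m2, Gm20559, Parp12, Kif26b and Ngef, at distances of 0.048 to 0.064 log2 units. Parp12, itself an interferon-stimulated gene, was at 6.19 and 6.13 log2 CPM in SA 1 and SA 2 against 5.69 and 5.58 in WT 1 and WT 2. With 4 libraries such likeness is a description of levels.

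Leaving out each library in turn kept the direction of every member except Ifitm2. For the members other than Ifitm2 this was fixed beforehand, since their SA and WT libraries do not overlap. Only the sizes of their differences could change. The differences of Mx2 ran from 2.04 to 2.62 and those of Mx1 from 1.42 to 1.63. Without SA 2 the difference of Ifitm2 was 0.0033.

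**Figure D5:**
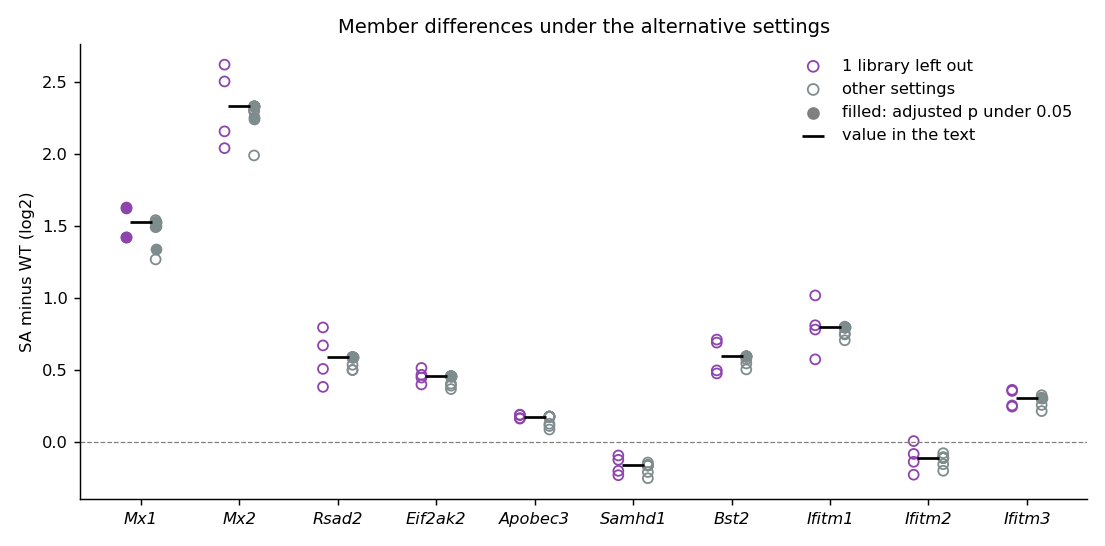
Log2 difference, SA minus WT (vertical axis), of each member under each alternative setting, with 1 library left out in purple and other settings in grey; filled points passed an adjusted p of 0.05 and the black line is the value given in the text. Mx2 stays between 1.99 and 2.62 and Mx1 between 1.27 and 1.63, while Ifitm2 crosses 0 at 1 setting.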

How the data were processed

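Total RNA from 4 lung samples was depleted of ribosomal RNA and sequenced as stranded libraries, per the labels' protocols. The submitters' processing notes list Subread, featureCounts and limma, with GRCm38 as build; no version, setting or annotation release is given there. The authors deposited log2 values in a filtered and an unfiltered table, whose values are equal where both hold a gene. From the values, each is the log2 of CPM with 0.5 added to the reads and 1 to the library total. Inverting that formula returned read numbers within 0.001 of a whole number for 100.0% of genes.

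The genotypes were compared by limma 3.58.1 under R 4.3.3, with genotype as the only term, a mean-variance trend, two-sided tests and Benjamini-Hochberg adjustment over 12850 genes at 0.05. The fit had 2 residual and 2.25 prior degrees of freedom, against 13.8 prior ones over the 46603 unfiltered genes, from which Mx1 was read. The fit was tested on simulated data. Positions and exon lengths came from GENCODE M21 (GRCm38), which holds 12822 of the 12850 filtered identifiers.

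Named genes are the members, Ifnar1, the genes of lowest p in each related list (4 at most) and the 5 nearest profiles; 1 gene that this rule names is not reported here, and others are said to be outside this rule or serve as markers and neighbours. The members and lists were chosen with earlier results of these data known. Alternatives were a replicate block, other tables, filters, scalings, pseudocount and variance models, voom on recovered reads, and each library left out. Other steps ran in Python 3.11.15 with scipy 1.17.1, numpy 2.4.6, pandas 2.3.3 and matplotlib 3.10.9.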

Additional observations from a re-analysis of the deposited data

How the results depend on the processing

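The direction of the 10 member differences held in all but 1 of 148 values over 15 alternatives. Many of these values could not change direction. A replicate block, another choice of mean-variance trend or another set of genes leaves the difference itself unchanged. Leaving out 1 library cannot reverse a member whose groups do not overlap. With 1 library left out, Ifitm2 ran from -0.23 to 0.0033, positive only without SA 2. The calls were less stable, and the cause was not tested. The members past the threshold, 1 in the values given, numbered 7 with the replicate block, 6 in the unfiltered table, 3 with a robust trend, 2 with median centring and 0 with quantile normalization, voom on library totals, no trend, or unfiltered genes averaging at least 1 log2 CPM. The 1 member in the values given is Mx1, read from the fit over unfiltered genes, in which 2213 of all genes passed. The genes past the threshold, 40 of 12850 (21 higher and 19 lower), numbered 3179 with the replicate block, 2213 in the unfiltered table, 611 with a robust trend, 476 with median centring (169 higher and 307 lower), 415 over filtered genes averaging at least 1, 410 and 268 in voom with median-of-ratios scaling (165 higher and 245 lower) and with library totals, 1 with no trend, 0 with quantile normalization (limma, 3157 at an unadjusted p under 0.05), and 0 to 6 with 1 library left out. The other antiviral effectors past it, 6 of 28, numbered 20 with the replicate block, 19 in the unfiltered table, 17 with a robust trend, 15 over filtered genes averaging at least 1, 14 with median centring, 12 and 11 in voom with median-of-ratios scaling and with library totals, and 0 with no trend, with quantile normalization, and 0 to 0 with 1 library left out. The relatives past it were 1 with the replicate block and 1 in the unfiltered table, Apobec2 in both. Same-numbered samples deviated together (correlation 0.44 over genes), but the labels give the numbers no shared origin, so the block is not a known pairing. Median centring moves the median difference of all unfiltered genes to -0.24, against -0.06 without it, and Mx1 to 1.34. The -0.06 is also the difference of a gene with 0 reads in every library. Most unfiltered genes average below 1 log2 CPM, so this scaling of Mx1 rests on scarce genes. With 42 to 61 reads per WT library, counting error limits the precision of Mx1 and Mx2, and 2 samples a genotype limit every test.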

Other observations

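Apobec4, a relative of the deaminases outside the filtered table, was at 0.56 and 0.66 log2 CPM in SA 1 and SA 2 against -0.21 and -0.43 in WT 1 and WT 2, on 40 and 60 reads against 26 and 23. The difference of 0.93 did not pass over unfiltered genes (limma adjusted p = 0.12). Trim5, of the TRIM family of restriction factors, was at 2.81 and 2.90 log2 CPM in SA 1 and SA 2 against 2.49 and 2.50 in WT 1 and WT 2, a difference of 0.37 that did not pass either (limma adjusted p = 0.20). Both genes were named after their values were seen.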
